A study of Sus scrofa with 6 samples.

Results

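CASD1 and BET1 are a pair of genes of the secretory pathway that lie in 1 interval of pig chromosome 9 around the imprinted genes SGCE and PEG10. Their CpG methylation was read from whole-genome bisulfite sequencing of whole embryos. Members were the CpGs that the deposited annotation places in CASD1 or BET1 (exon, intron, untranslated region, or the stretches just upstream and downstream) or in the promoter of either gene. This gave 700 of the 14091 CpGs of the interval with a read, 603 in CASD1 and 97 in BET1, and 2 of its 24 annotated genes. Of these, 515 had at least 10 reads in every embryo and could be tested singly, 424 in CASD1 and 91 in BET1. The 10-read limit kept 12359 CpGs of the interval.

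The groups were 3 control embryos, labelled untreated, and 3 parthenotes. All were whole embryos of a Landrace x Yorkshire x Duroc (LYD) cross at embryonic day 21. Parthenotes came from oocytes activated by an electric stimulus and were carried by LYD surrogate gilts, with 200 embryos transferred to each of 2 gilts. They have no paternal genome. How the controls were conceived is not stated in the labels. The labels do not say which embryos shared a litter, so litter and group cannot be told apart, and p-values measure only the spread between these embryos. A whole embryo mixes many cell types, and a methylation level is an average over them. The labelled tissue was not checked against marker genes, since only this interval was analysed here. Each embryo had 380163 to 406443 reads at CpG cytosines of the interval, and the median CpG had 27 to 29 reads. Members carried a median of 22 to 25 reads in CASD1 and 20 to 28 reads in BET1. Control 1 stood apart from the other embryos: it was the lowest of the 6 in 71.5% of the 500 bp windows of the interval, in 36 of 65 CASD1 windows and in 4 of 8 BET1 windows. Promoter, exon and intron differences are also given without control 1 where that changed a direction or moved a value by over 1.5 times. Levels of single stretches, bins and windows, and medians over the interval, include control 1 throughout.

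CASD1 is the Golgi enzyme that adds O-acetyl groups to sialic acids, the sugars that cap many glycoproteins and gangliosides. BET1 is a SNARE protein that takes part in the fusion of transport vesicles between the endoplasmic reticulum and the Golgi apparatus. Both act in most cell types, and genes of that kind usually start in a CpG-rich stretch that is kept free of methylation on both parental chromosomes, while their bodies are methylated. At an imprinted start, by contrast, only 1 parental chromosome is methylated, so a control embryo reads at an intermediate level. A parthenote, which carries maternal chromosomes only, then reads near full or near 0. The comparison asks whether CASD1, which lies near SGCE, and BET1, farther away, show such a difference.

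On Sscrofa11.1, CASD1 occupies positions 74276533 to 74347608 of chromosome 9 on the forward strand, a length of 71076 bp. BET1 occupies positions 73782157 to 73792653 of the same chromosome on the reverse strand, a length of 10497 bp. CASD1 has 485 CpGs in introns, 81 in coding exons, 9 in the 5′ untranslated region and 3 in the 3′ untranslated region. BET1 has 46 in introns, 1 in a coding exon, 13 in the 5′ untranslated region and 2 in the 3′ untranslated region. Exons and untranslated regions were joined as exon CpGs. The deposited promoter of each gene reaches about 2000 bp upstream of a transcript start and holds 24 CpGs in CASD1 and 30 in BET1. In CASD1, 2 CpGs counted in both the promoter and the exon set.

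No difference between parthenotes and controls passed the test in the promoter, exons or introns of either gene, and the groups overlapped in all 6 sets. A level is the number of reads that kept a C divided by all C-or-T reads, summed over the CpGs and both strands. The CASD1 promoter read 52.1%, 60.04% and 57.0% in controls 1 to 3 and 53.5%, 58.8% and 58.8% in parthenotes 1 to 3. The groups overlapped, with means of 56.4% ± 4.02 (SD, n = 3) and 57.0% ± 3.08 (SD, n = 3), a difference of 0.67 percentage points (edgeR quasi-likelihood test, adjusted p = 0.926). The BET1 promoter read 35.7%, 42.2% and 37.9% in controls and 31.7%, 41.8% and 36.3% in parthenotes. These groups overlapped too, at 38.6% ± 3.28 and 36.6% ± 5.03 (SD, n = 3 each; edgeR adjusted p = 0.843). In both promoters the lowest control was control 1 and the lowest parthenote was parthenote 1. Promoter levels rested on 458 to 680 reads per embryo in CASD1 and 662 to 923 in BET1, and the widest 95% Wilson interval reached 4.52 and 3.75 percentage points to either side. These intervals treat all counts as independent and leave out the spread between embryos. Since 1 read can cover several CpGs and count at all of them, they can be too narrow even for counting error. Reads are also not independent molecules.

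The exon sets varied between embryos within both groups. CASD1 exons read 42.7%, 53.4% and 45.5% in controls and 45.2%, 53.3% and 36.7% in parthenotes. The lowest and the second highest of these were both parthenotes, and the means were 47.2% ± 5.51 and 45.1% ± 8.32 (SD, n = 3 each; edgeR adjusted p = 0.858). BET1 exons read 22.4%, 27.5% and 26.9% in controls and 16.3%, 28.2% and 24.5% in parthenotes. Parthenote 1 was lowest and parthenote 2 highest, with means of 25.6% ± 2.76 and 23.0% ± 6.07 (SD, n = 3 each; edgeR adjusted p = 0.772).

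Introns were more even. BET1 introns stayed between 69.1% and 70.5% in the 6 embryos, with means of 69.7% ± 0.61 in controls and 70.2% ± 0.41 in parthenotes (SD, n = 3 each; edgeR adjusted p = 0.926). CASD1 introns read 85.6%, 89.3% and 88.9% in controls and 90.2%, 88.5% and 87.5% in parthenotes. The means were 87.9% ± 2.04 and 88.7% ± 1.36 (SD, n = 3 each; edgeR adjusted p = 0.858), and control 1 was the lowest embryo.

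**Figure D1:**
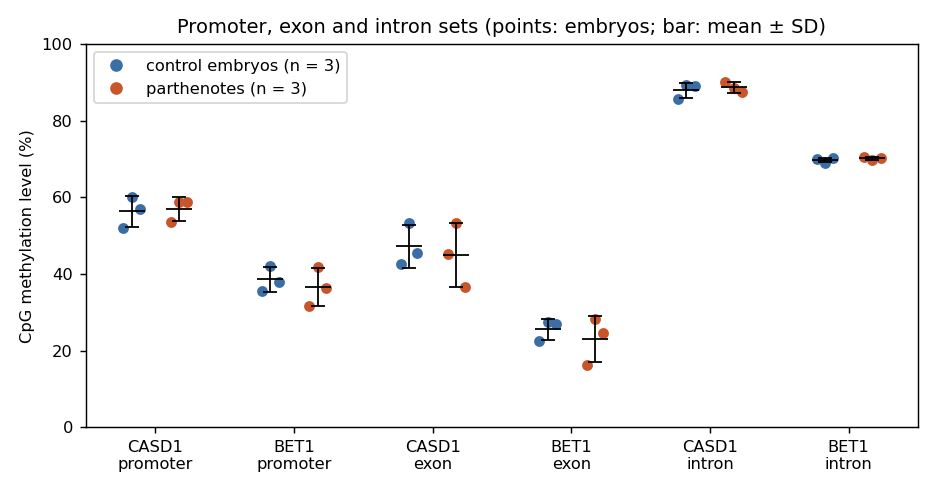
CpG methylation level (%) of the promoter, exon and intron sets of CASD1 and BET1. Each point is 1 embryo, blue for controls and orange for parthenotes, and bars show the mean ± SD of 3. The groups overlap in all 6 sets, and BET1 lies below CASD1 in each kind of set.

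Across the interval, 48 promoter, exon and intron sets were tested with edgeR and 6.25% were called at an adjusted p under 0.05. The 0 of 6 CASD1 and BET1 sets called stand against that small share. None of the 6 had an unadjusted p under 0.05, the smallest being 0.507, and the adjusted p was 0.748 or more with limma and 0.807 or more with DESeq2. The 6 differences ran from -2.59 to 0.79 percentage points with a median of -0.79, beside a median of 3.08 over all 48 sets. These medians, and that of the other promoters, include control 1, the lowest embryo in 71.5% of the interval's windows. How far control 1 raised them was not tested. Among the other 15 genes with a tested promoter, 2 promoters were called higher in parthenotes and 0 lower, with a median difference of 1.56 percentage points. The promoter of SGCE, which encodes epsilon-sarcoglycan and lies beyond the CASD1 end, was one of them, at 47.9% ± 4.34 in controls and 95.4% ± 2.71 in parthenotes (SD, n = 3 each; edgeR adjusted p = 1.18e-05).

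The direction of these small differences was not stable. The CASD1 promoter difference was -1.48 percentage points when control 1 was left out. Leaving out parthenote 2 gave -0.22, and leaving out parthenote 3 gave -0.23. The BET1 promoter and exon differences turned to 0.43 and 0.75 percentage points without parthenote 1. That embryo had the most reads at CpGs close to the BET1 start, where levels were low, as given below. The CASD1 exon difference turned to 0.93 without control 2 and to 2.06 without parthenote 3, and the CASD1 intron difference to -0.38 without control 1. Without control 1 the exon differences grew from -2.15 to -4.38 percentage points in CASD1 and from -2.59 to -4.17 in BET1. The BET1 promoter difference grew from -1.99 to -3.45. No setting gave a call for any of the 6 sets.

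The pooled levels of a set join very different stretches, and both genes showed the same order along their length. At the start each gene was almost free of methylation. The start-proximal exon CpGs of CASD1, 72 CpGs over 726 bp, held 15 methylated reads among 4977 in the 6 embryos together. Per embryo the level was 0.10%, 0.17% and 0.52% in controls and 0.38%, 0.59% and 0.17% in parthenotes, with overlapping groups. The start-proximal exon CpGs of BET1, 14 CpGs over 173 bp, held 5 methylated reads among 1376. Control 2, parthenote 1 and parthenote 3 had 0 methylated reads among 216, 323 and 187, which allows a level of up to 1.39%, 0.93% and 1.60% at a limit of 3 counts. The 95% Wilson upper limits for these embryos were 1.75%, 1.18% and 2.01%. The other 3 embryos read 0.52% to 0.95%. The share of cytosines that escaped conversion is not known here, and levels this low include it.

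Later exons were methylated in both genes. The 21 later exon CpGs of CASD1 read 94.0% ± 2.92 in controls and 93.4% ± 0.33 in parthenotes (SD, n = 3 each). They fell into 10 stretches of 1 to 5 CpGs, with control means of 92.2 to 97.4% and parthenote means of 91.2 to 97.8%. In BET1, only 2 exon CpGs lay beyond the start, both in the 3′ untranslated region, and they read 94.9% ± 2.4 and 93.7% ± 0.79 (SD, n = 3 each). The pooled exon level of each gene was therefore a mixture of CpGs near 0 and CpGs above 90%. In CASD1 the start-proximal part gave 604 reads in control 2, whose pooled exon level was the highest, and 1177 reads in parthenote 3, whose pooled exon level was the lowest. In BET1 the start-proximal part gave 323 reads in parthenote 1, with the lowest pooled exon level, and 211 in parthenote 2, with the highest. Within 500 bp upstream, BET1 had 583 reads in parthenote 1, with the lowest promoter level, and 348 in control 2, with the highest. Parthenote 1 read 0% in start-proximal exon CpGs of BET1, 92.8% in later ones and 4.12% within 500 bp upstream. The part of these read numbers in the spread between embryos was not tested.

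Upstream of the start, levels rose within about 1000 bp in both genes. Within 500 bp, the 7 CpGs of CASD1 read 3.87% ± 2.12 in controls and 4.27% ± 3.39 in parthenotes, and the 20 CpGs of BET1 read 5.91% ± 0.86 and 4.74% ± 0.90 (SD, n = 3 each). Between 500 and 1000 bp the levels were 69.4% and 70.9% in CASD1 and 72.7% and 73.4% in BET1, controls first. Between 1000 and 2000 bp, CASD1 read 80.3% ± 13.3 in controls and 82.5% ± 6.51 in parthenotes, while BET1 read 95.2% ± 2.898 and 96.0% ± 1.93 (SD, n = 3 each). The wide control spread in CASD1 came with control 1, at 65.1% against 86.2% and 89.6% in the other controls. The other controls both lay above the parthenote mean, so the sign of this difference depended on control 1.

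Introns showed the same rise downstream of the start. Intron CpGs within 2000 bp of the start read 21.1% in controls and 22.1% in parthenotes in CASD1, and 23.1% and 20.2% in BET1. More than 5000 bp from the start, CASD1 introns read 93.7% ± 2.33 and 94.6% ± 0.32, and BET1 introns 92.8% ± 1.09 and 92.5% ± 0.97 (SD, n = 3 each). In BET1, introns within 5000 bp of the start read 51.9%, 48.8% and 50.4% in controls and 47.5%, 47.8% and 46.8% in parthenotes. The groups did not overlap there, by a difference that was not tested and that was chosen after its values were seen. In CASD1 the same distance gave 38.7% ± 3.28 and 39.8% ± 2.51 (SD, n = 3 each), with overlap. The annotation of single CpGs was the only exon map used, so an exon without a CpG could lie inside a stretch counted as intron.

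**Figure D2:**
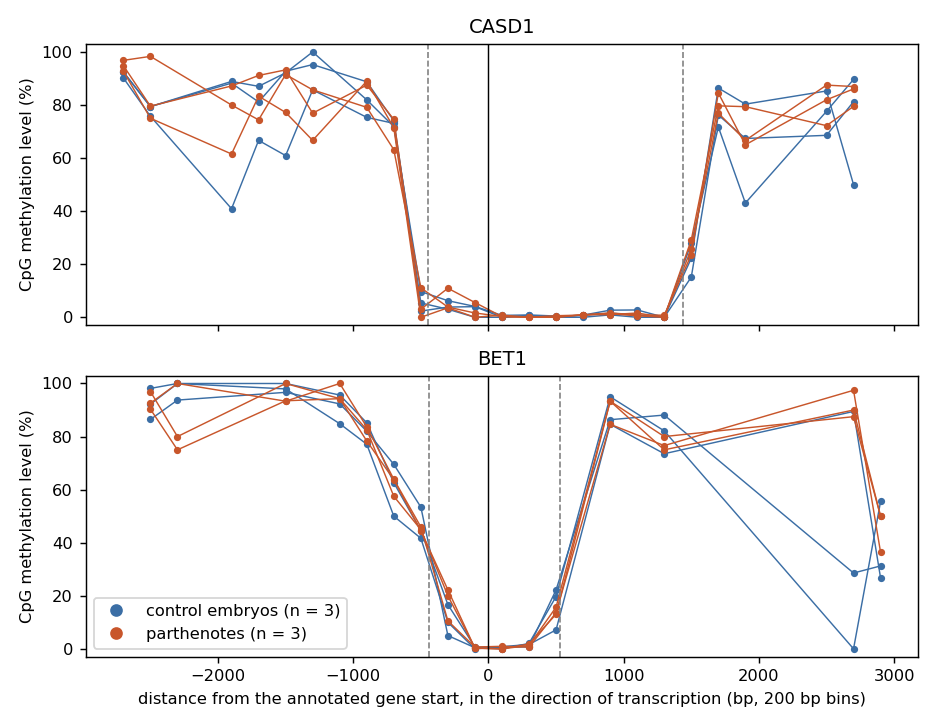
CpG methylation level (%) in bins of 200 bp against the distance (bp) from the annotated start of CASD1 and of BET1, in the direction of transcription. Lines are single embryos, blue for 3 controls and orange for 3 parthenotes, and dashed lines mark the median edges. All 6 embryos drop to near 0 around both starts, and the low stretch reaches farther into CASD1 than into BET1.

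The extent of the low stretch was measured in each embryo. Going outward from the start, its edge was the first CpG of the first run of 5 CpGs whose pooled level was 50% or more, so an edge CpG can itself still be low. The upstream edge of CASD1 lay 447 bp from the start in all 6 embryos. Its downstream edge lay 1439 bp from the start in 5 embryos and 1406 bp in parthenote 1. The stretch was therefore 1886 bp wide in 5 embryos and 1853 bp in parthenote 1. In BET1, the upstream edge lay at 438 bp in 5 embryos and at 418 bp in control 2. The downstream edge of BET1 lay at 530 bp in 4 embryos, at 571 bp in control 2 and at 517 bp in control 3. Its width was 955 to 989 bp. Group differences in edge position were at most 11 bp, and each had p = 1 in a 2-sided exact permutation test, which with 3 against 3 embryos cannot give less than 0.1. Some of these differences were far larger under other edge rules. At an edge level of 70%, parthenote minus control was -854.3 bp for the BET1 downstream edge and -876.3 bp for the BET1 width (exact permutation p = 0.4 and 0.2). There the BET1 downstream edge ranged from 902 to 3100 bp over the embryos. The parthenotes lay at 902 bp and the 3100 bp edge was that of a control. Runs in that stretch take in the CpG at position 73789861, with as few as 4 reads and a strand without a call in at least 1 embryo. It read 0% in control 2, 28.6% in control 3 and 87.5% or more in the other embryos. With runs of 3 CpGs the CASD1 upstream edge differed by -112.7 bp and its width by -122.7 bp (exact permutation p = 0.4 each).

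**Figure D3:**
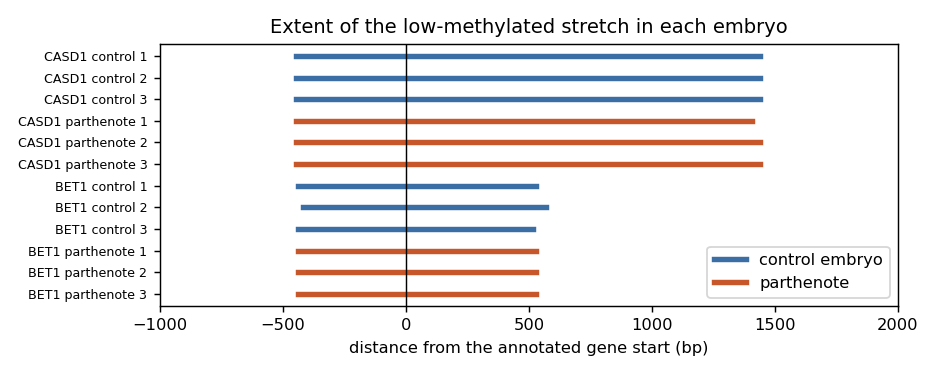
Extent of the low-methylated stretch at the CASD1 and BET1 starts, 1 bar per embryo from its upstream to its downstream edge, against the distance (bp) from the annotated gene start in the direction of transcription. Bars of controls (blue) and parthenotes (orange) nearly coincide within a gene, at 1853 to 1886 bp for CASD1 and 955 to 989 bp for BET1.

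The transition took place over a few CpGs. Upstream of CASD1, the CpG at 545 bp read 0 to 9.09% over the 6 embryos and the next one, at 687 bp, read 85.7 to 100%. Downstream, the CASD1 CpG at 1439 bp read 2.70 to 8.33%, that at 1469 bp 25 to 56.3%, and that at 1643 bp 76.2 to 90.5%. Upstream of BET1, the CpG at 438 bp read 0 to 10.7%, that at 493 bp 38.7 to 50%, and that at 557 bp 87.1 to 96.8%. The rise was not smooth in either gene. Beyond the BET1 edge the CpG at 663 bp fell back to 17.7 to 35.1%, and beyond the CASD1 edge the CpG at 715 bp read 40 to 61.5%. On the downstream side of BET1 there was no CpG with reads between 571 bp, at 0 to 19.4%, and 902 bp, at 84.6 to 95%, so the position of the rise is not resolved there.

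Inside the low stretch CASD1 held 133 CpGs, or 7.05 per 100 bp against 0.65 in the rest of the gene. BET1 held 42, or 4.34 per 100 bp against 0.38. The level of the CASD1 stretch was 0.63%, 1.75% and 1.19% in controls and 1.00%, 1.54% and 1.42% in parthenotes. That of the BET1 stretch was 1.51%, 2.36% and 2.73% in controls and 1.61%, 2.83% and 2.07% in parthenotes. Groups overlapped in both genes. Read alone, each strand was low as well, at 0.36 to 2.28% in CASD1 and 0.79 to 3.71% in BET1. The stretch was chosen for its low level, so these values describe it and are no test. Depth was lower there, where the median CpG had 8 to 15 reads in CASD1 and 16 to 26 in BET1, so that 17 of the 133 CASD1 CpGs and 40 of the 42 BET1 CpGs entered the single-CpG test.

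Within embryos, CASD1 read higher than BET1 in all 3 kinds of set, but the promoter difference depended on where the promoter was drawn. CASD1 minus BET1 was 19.1 ± 2.54 percentage points in promoters, 21.8 ± 6.06 in exons and 18.4 ± 1.65 in introns (SD, n = 6). Each was positive in 6 of 6 embryos, with p = 0.03125 in a 2-sided exact sign-flip permutation test and the same value after adjustment over the 3 comparisons, the smallest that 6 embryos allow. With a promoter that took in 1000 bp before the gene start and 500 bp after it, the difference turned to -7.94 percentage points, and with 500 bp on each side to -2.61. Each of these had an adjusted p of 0.0312 in the same exact permutation test. The exon and intron differences also depended on which parts were joined. In controls, start-proximal exon CpGs read 0.26% in CASD1 and 0.44% in BET1, and later exons 94.0% and 94.9%. Introns within 5000 bp of the start read 38.7% in CASD1 and 50.4% in BET1, and those farther away 93.7% and 92.8%. The pooled exon difference was 9.33 percentage points as an unweighted mean over CpGs and 64.6 over CpGs with at least 10 reads in every embryo.

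The low stretch was wider in CASD1 than in BET1 by 911 ± 16.8 bp (SD, n = 6). It was wider in 6 of 6 embryos (2-sided exact sign-flip permutation test, p = 0.03125; adjusted over 3 comparisons, 0.03125). Nearly all of this lay downstream of the start, where the edges differed by 899 ± 21.5 bp, against 12.3 ± 8.16 bp upstream. No CpG with reads lay between 571 and 902 bp downstream of the BET1 start. The SD between embryos therefore does not cover how uncertain the place of that edge is. An edge can fall only on a CpG, and the embryos share the CpG positions of each gene. The 6 embryos are thus not independent repeats of the width difference, and its p-value adds no support to it. With an edge level of 70% in place of 50%, the width difference was 178.5 bp and no longer passed (exact permutation p = 0.688).

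Among CpGs with at least 10 reads in every embryo, a larger share was low in BET1 than in CASD1. Of the tested BET1 CpGs, 45.1 to 48.4% read 20% or less, against 4.25 to 5.19% of the tested CASD1 CpGs and 3.52 to 3.99% of those of the interval. The limit of 10 reads bears on this contrast, since it kept few CpGs of the CASD1 low stretch. Over all members, the low stretch held 133 of 603 CpGs (22.1%) in CASD1 and 42 of 97 (43.3%) in BET1. Between 84.9 and 91.8% of tested CASD1 CpGs read 80% or more. The lowest of these shares was that of control 1, in which 10.6% of CASD1 CpGs lay between 20 and 80%, beside 3.77 to 5.42% in the other embryos. Over the interval the same class held 42.2% of CpGs in control 1 and 14.3 to 20.02% in the other embryos. In BET1 it held 12.1 to 16.5%, with control 1 at 15.4%.

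Few CpGs of either gene read at an intermediate level in controls, and none of them was near full or near 0 in parthenotes. A control mean of 35 to 65% was found at 7 of the 424 tested CASD1 CpGs (1.65%), at 4 of the 91 tested BET1 CpGs (4.40%) and at 964 of the 12359 of the interval (7.80%). Of the 7 in CASD1, 0 had a parthenote mean of 80% or more, 0 had 20% or less and 3 stayed at 35 to 65%. Of the 4 in BET1, the counts were 0, 0 and 2. In the interval they were 149, 2 and 465 of 964. Most intermediate CpGs of the interval were thus also neither near full nor near 0, so 0 of 7 and 0 of 4 do not set these genes apart. Without control 2, 12 CASD1 CpGs were intermediate and 3 of them high in parthenotes, and with limits of 30 to 70% and 75% the counts were 11 and 3.

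In CASD1, intermediate CpGs lay 715 bp upstream and 1469, 1765, 1854 and 2535 bp downstream of the start, and the other 2 lay farther into the introns. In BET1, the CpG 493 bp upstream of the start read 46.3%, 48.5% and 50% in controls and 41.4%, 38.7% and 47.5% in parthenotes. Another lay 3100 bp downstream of the BET1 start and read 55.3% ± 10.0 in controls and 59.4% ± 6.59 in parthenotes (SD, n = 3 each). The CASD1 intron CpG at position 74338596 read 44.7%, 100% and 20.8% in controls and 95.9%, 0% and 100% in parthenotes. It carried A on the opposite strand, which in bisulfite reads is a sign of a C-to-T sequence variant.

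In windows of 500 bp, 0 of 65 CASD1 windows and 0 of 8 BET1 windows were called by edgeR, against 0.314 percent of the 1911 windows of the interval. At an unadjusted p under 0.05 the count was also 0 in both genes, and limma and DESeq2 called 0. CASD1 windows differed by -8.20 to 8.81 percentage points with a median of 0.60. In 7 of the 8 BET1 windows the difference was within 10 percentage points, beside 1795 of the 1911 windows of the interval. The median over the BET1 windows was -0.49, beside 2.35 in the interval, both with control 1 included.

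The widest window differences were examined after their values were seen. In the BET1 window at positions 73789500 to 73789999, in an intron, controls read 64.2%, 44.4% and 41.8% and parthenotes 68.4%, 69.2% and 65.6%, with no overlap (edgeR adjusted p = 1.0). It holds 3 CpGs. The one at position 73789861 read 89.5%, 0% and 28.6% in controls and 90.0%, 97.4% and 87.5% in parthenotes, with as few as 4 reads and a strand without a call in at least 1 embryo. The CASD1 window at positions 74300000 to 74300499 read 72.2% in control 1 and 95.4 to 98.1% in the other 5 embryos. Its CpG at position 74300278 read 35.5% in control 1 and 96.4 to 100% elsewhere, and carried A on the opposite strand. The CASD1 window at positions 74310500 to 74310999 read 66.1% in parthenote 3, on 59 reads, and 91.2 to 95.9% elsewhere. Of its 19 CpGs, 13 had a strand without a call in at least 1 embryo and 0 showed A on the opposite strand. Low depth also leaves strands without a call.

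Of single CpGs, edgeR called 0 of 424 in CASD1 and 0 of 91 in BET1, against 0.429 percent of the 12359 of the interval. At an unadjusted p under 0.05 there were 12 in CASD1, 9 higher and 3 lower in parthenotes, and 0 in BET1. The 12 were 2.83% of the tested CASD1 CpGs, beside 3.29% in the interval. The smallest adjusted p was 0.656 in CASD1 and 1.0 in BET1, and limma and DESeq2 called 0 in each gene.

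The largest single differences in CASD1 came from 1 embryo each. The intron CpG at position 74324547 read 0% in parthenote 3 and 96.0 to 100% in the other 5 embryos. That at position 74336398 read 0% in parthenote 2 and 82.4 to 94.4% elsewhere. At both, a strand had no call in at least 1 embryo, which was counted as a sign of a sequence variant, but no A passed the limit on the opposite strand. Over all CASD1 members, 40 CpGs had such a sign and 8 of them showed A there. The next, at position 74304071, had no such sign and read 38.1%, 84.6% and 82.1% in controls and 91.3%, 100% and 94.1% in parthenotes. Control 1 was far below the rest, although the groups did not overlap (edgeR, unadjusted p = 0.0118, adjusted p = 0.944).

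Among BET1 CpGs with at least 10 reads in every embryo, the largest single differences were 8.89, 7.59 and 7.03 percentage points. The CpG at position 73781442, downstream of the gene, read 93.3%, 80% and 100% in controls and 100% in all 3 parthenotes. The intron CpG at position 73789025 read 35.9%, 74.2% and 68.0% in controls and 73.9%, 72.4% and 54.6% in parthenotes, and carried A on the opposite strand. The CpG at position 73793039, inside the low stretch, read 10%, 5% and 16.7% in controls and 22.2%, 10.5% and 20% in parthenotes. The groups overlapped at the last 2 of these and touched at 100% at the first.

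CASD1 ends 55105 bp before SGCE, which lies on the reverse strand and so starts at the end far from CASD1. From the CASD1 end to the stretch of 3000 bp over the SGCE and PEG10 starts, where parthenotes were higher, the distance is 125891 bp. From the BET1 start it is 680847 bp. In bins of 10 kb from 10 kb after the CASD1 start to just past its end, the 7 differences between groups ran from -0.10 to 1.67 percentage points. Control means were 90.4 to 94.3% and parthenote means 91.0 to 95.6%. The largest difference, 20 to 30 kb after the start, came with control 1. It read 87.9% there, beside 96.4% and 94.7% in the other controls and 94.4 to 95.1% in parthenotes. Control 1 was not lowest in every bin: at 40 to 50 kb parthenote 3 was, at 92.2%. Between CASD1 and SGCE the 311 CpGs read 84.9%, 92.9% and 91.1% in controls and 90.7%, 91.4% and 90.4% in parthenotes. Control 1 was lowest, and the groups overlapped. Among the 10 kb bins from CASD1 through SGCE, the groups did not overlap only in the last and shorter bin before the SGCE start, with 51.4% ± 1.91 in controls and 65.04% ± 8.09 in parthenotes (SD, n = 3 each). The SGCE and PEG10 stretch itself read 47.8% ± 3.40 and 95.2% ± 2.34 (SD, n = 3 each). That stretch was taken from calls in these same data, so its values describe it and are no test.

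**Figure D4:**
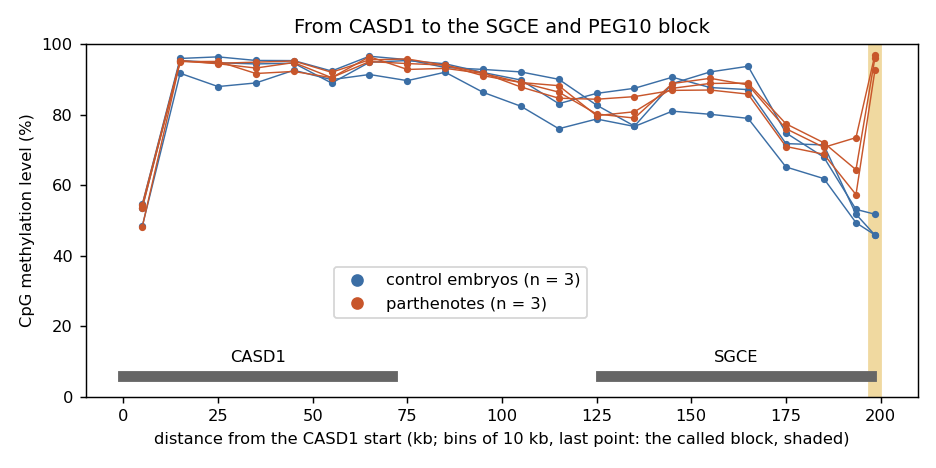
CpG methylation level (%) against the distance (kb) from the CASD1 start, in bins of 10 kb with a shorter last bin, up to the shaded stretch of 3000 bp over the SGCE and PEG10 starts. Lines are single embryos, blue for 3 controls and orange for 3 parthenotes, and grey bars are the genes. Controls and parthenotes run together over CASD1. They no longer overlap in the shorter last bin before the SGCE start, at 51.4% against 65.04%. In the shaded stretch, which was called in these data, they lie at 47.8% against 95.2%.

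Annotated long non-coding RNA genes touch both genes. The near end of LOC102163402 lies 73 bp from the BET1 start, on its upstream side, and LOC106504956 overlaps the last 2671 bp of CASD1. CpGs of the BET1 upstream stretch and of the CASD1 3′ end thus lie in or beside a further gene, and a DNA methylation level cannot be assigned to 1 of them.

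Among the 14 other genes of the interval with a promoter, exon and intron set, the root mean square difference over the 18 levels (3 sets in 6 embryos) was used as a measure of likeness. CASD1 was nearest to PDK4, at 11.6 percentage points, and PON2, at 15.3. BET1 was nearest to GNGT1, at 11.7, and PON2, at 13.9. CASD1 and BET1 were 20.1 percentage points from each other, which placed BET1 at rank 6 from CASD1 and CASD1 at rank 4 from BET1. SGCE was at rank 12 from CASD1, at 28.4 percentage points. This is a description of levels in libraries that all genes share.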

How the data were processed

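The authors deposited, per the file headers, read counts at each CpG cytosine: C reads, C-or-T reads, and opposite-strand G and G-or-A reads. They also deposited an expected count (C-or-T reads times G over G-or-A reads) and the methylation fraction made from it, per the file headers. The submitters' processing notes name BSMAP 2.87 and Sscrofa11.1. Trimming and duplicate removal are not given in the sources used here.

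Here the raw counts of both strands were summed per CpG. Sets and windows needed 3 CpGs and 30 reads in every embryo, single CpGs 10 reads. Methylated and unmethylated counts were tested with edgeR 4.0.16 (quasi-likelihood, R 4.3.3) over the whole interval, with Benjamini-Hochberg adjustment and calls at an adjusted p under 0.05. limma 3.58.1 and DESeq2 1.42.0 were alternatives. The exact permutation tests went through all patterns with numpy 2.4.6, and scipy 1.17.1 gave the Wilson intervals. Methods were tested on simulated data. A sequence-variant sign was 20% or more A among 10 or more opposite-strand reads, or a strand without a call, in any embryo. Edges were sought within 5000 bp. Named items were the 2 genes with their sets, called windows and CpGs, the 3 CpGs of largest difference per gene, the 2 nearest genes and SGCE. Gene positions came from RefSeq on the same build. The members and lists were chosen with earlier results of these data known.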

Additional observations from a re-analysis of the deposited data

How the results depend on the processing

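Of 312 recomputed values, 25 no longer passed the threshold, 23 changed sign and 9 counts moved by more than 1.5 times or away from 0. For the promoter, exon and intron sets, 96 alternative model fits gave group differences of -6.88 to 2.92 percentage points and adjusted p of 0.696 to 0.994. Unweighted means gave unadjusted exact permutation p of 0.5 to 1.0. The BET1 intron difference turned to -0.49 over CpGs with 10 reads, -0.49 without CpGs that had a variant sign and -0.23 on the reverse strand alone. On the reverse strand the BET1 promoter gave 2.92 and the CASD1 intron -0.02. Leaving out each embryo in turn gave -1.48 to 2.50 for the CASD1 promoter, -6.26 to 2.06 for its exons and -0.38 to 1.46 for its introns. For BET1 it gave -4.59 to 0.43, -5.18 to 0.75 and 0.08 to 0.68 in the same order. The cause was not tested.

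Same-numbered embryos did not pair, with correlations of their deviations of 0.191, 0.188 and -0.278 over 1911 windows. With the replicate block, edgeR called 1 CASD1 CpG, at position 74324547, where a strand had no call in at least 1 embryo (adjusted p = 0.00334).

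CASD1 minus BET1 in promoters turned to -7.94 and -2.61 percentage points with the shorter promoters. With 5 embryos it was 18.4 to 19.7 in promoters, 20.4 to 23.8 in exons and 18 to 18.9 in introns, and 907.2 to 916.4 bp in width. Each then had exact p = 0.0625, the smallest 5 embryos allow. The width difference fell to 178.5 bp with a 70% edge level. The BET1 downstream edge, parthenote minus control, turned to 9.0 bp at a 30% level and 9.0 bp with runs of 10 CpGs. The BET1 width turned to 19.7 bp at 30%, 18.3 bp with runs of 3 and 67.0 bp with runs of 10, and the BET1 upstream edge to -22.0 bp at 70%. The largest shifts kept their sign: at 70% the BET1 downstream edge and width were -854.3 and -876.3 bp, and with runs of 3 the CASD1 width was -122.7 bp. The CASD1 upstream edge went from 0 to -112.7 bp with runs of 3. Without each embryo in turn the BET1 values were -20.5 to 6.5 bp downstream and -10.5 to 6.5 bp in width. Intermediate CASD1 CpGs numbered 11, with 3 high in parthenotes, at the wider limits, and 5 to 12 and 0 to 3 without each embryo. In BET1, 0 to 1 were high without each embryo. Depth limits the CASD1 low stretch most, at 8 to 15 reads per CpG.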
